A study of Mus musculus with 6 samples.

Results

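The genes described here are the mouse fibroblast growth factors (Fgf), their receptors (Fgfr1 to Fgfr4 and Fgfrl1), the platelet-derived growth factor chains (Pdgfa to Pdgfd) and the PDGF receptors (Pdgfra, Pdgfrb and the receptor-like Pdgfrl). They were chosen by symbol alone, and 34 of the 57180 genes in the count table matched: 22 FGF ligands, 5 FGF receptors, 4 PDGF ligands and 3 PDGF receptors. The libraries are polyadenylated RNA of mouse lung, cardiac and tail tip fibroblasts grown in DMEM with serum, each transduced with the control adenovirus Ad-GFP or with Ad-Cre, and harvested 48 h later. Each of the 6 groups, lung, cardiac and tail tip fibroblasts with Ad-GFP or with Ad-Cre, holds 1 library. The submitters describe Ad-Cre as the GATA4 knockout, while every library carries the genotype label WT, and no floxed allele, strain or age is named. Nothing in the labels says whether the libraries came from separate animals or cultures, so a p-value here measures only the spread between these libraries. The 2 libraries of an origin differ in virus, so that spread is how the change from Ad-GFP to Ad-Cre differs between origins. It may be technical or hold a real difference in response, and it is not a spread between replicates.

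FGFs are secreted proteins that bind receptor tyrosine kinases together with heparan sulfate, except for an endocrine branch that needs Klotho proteins and an intracellular branch that is not secreted. PDGF chains pair into dimers that join PDGFRα and PDGFRβ, the classical receptors of mesenchymal cells, and both systems signal through RAS and ERK, PI3K and PLCγ. Fibroblasts are a main source of the FGFs that act on neighbouring epithelium, Fgf7 and Fgf10, and in the lung Fgf10 is known for its part in branching of the airways.

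Library totals ran from 26170316 to 33779069 counts. The limit of 3 counts that a gene with no read allows was 0.0888 to 0.115 counts per megaread (CPM) of these unscaled totals. All other CPM values were scaled by TMM library factors. All 9 fibroblast markers were read in every library, with summed levels of 7606 to 23822 CPM. Gata4 stood at 14.7 and 19.2 CPM in the lung libraries labelled Ad-GFP and Ad-Cre, at 147 and 149 CPM in the cardiac ones, and at 1 and 2 reads in the tail tip ones, so it was not lower in any library labelled Ad-Cre. Its count is per gene and would not show a deleted exon. The 8 macrophage markers summed to 14.5 to 18.0 CPM in lung, 136 to 217 CPM in cardiac and 1064 to 1289 CPM in tail tip libraries, with C1qa and C1qb at 0 in lung. The cardiac Ad-Cre library stood apart from its partner: the 7 epithelial markers, all read in both, summed to 144 CPM against 14.4 CPM, and the 5 mesothelial markers to 116 CPM against 56.7 CPM. All 7 epithelial markers were higher there, and so were Msln, Upk3b and Upk1b, whereas Lrrn4 stood at 9.43 against 32.2 CPM and Wt1 at 8.84 against 9.44 CPM. The lung and tail tip pairs differed in the 4 endocrine markers (Ins2, Iapp, Chga and Scg2). These summed to 10.6 and 0.858 CPM in lung, 2.52 and 1.31 in cardiac and 1.98 and 18.3 CPM in tail tip (Ad-GFP, then Ad-Cre). Where that RNA came from, and its part in members with few reads, was not tested. In bulk RNA, fewer cells of a type and less RNA per cell cannot be told apart.

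Of the 34 members, 27 had at least 10 reads in some library, 5 had fewer and 2 had none. The test was edgeR's quasi-likelihood F-test with origin and virus as additive terms and all 6 libraries in the fit, with Benjamini-Hochberg adjustment over the 18143 genes that passed a filter on low counts, and a call is an adjusted p under 0.05. Of the members, 23 passed that filter. A gene that is read only or mainly in the origins where it is high passes the filter through them, so the counts below are descriptions. The same holds for the p-values of such genes, among them Fgf5, Fgf9, Fgf13 and Fgfr4. Between origins, a fold given with a counting interval is a ratio of pooled reads and not the change that edgeR tested. Between cardiac and lung fibroblasts 13 of 23 members were called, 8 higher and 5 lower in cardiac, where 38.4% of all tested genes were called (20.8% higher and 17.6% lower). Between cardiac and tail tip fibroblasts 11 were called, 3 higher and 8 lower in cardiac, beside 33.5% of all genes (15.5% higher and 18.0% lower). Between lung and tail tip fibroblasts 10 were called, all 10 lower in lung, beside 50.6% of all genes (22.3% higher and 28.2% lower). The 3 comparisons share libraries, so their counts are not separate evidence. Without the cardiac Ad-Cre library the same 13, 11 and 10 members stayed called, among 13, 13 and 16 in all, and without the cardiac Ad-GFP library 21, 18 and 16 members were called. In all, 17 members were called somewhere, with Pdgfd and Pdgfrl called in all 3 comparisons. Fgf2, Fgfr1, Fgfrl1, Fgf14, Fgf17 and Fgf18 were tested and called in none. The shares of all tested genes called in any comparison, in all 3 or in none were not computed.

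**Figure D1:**
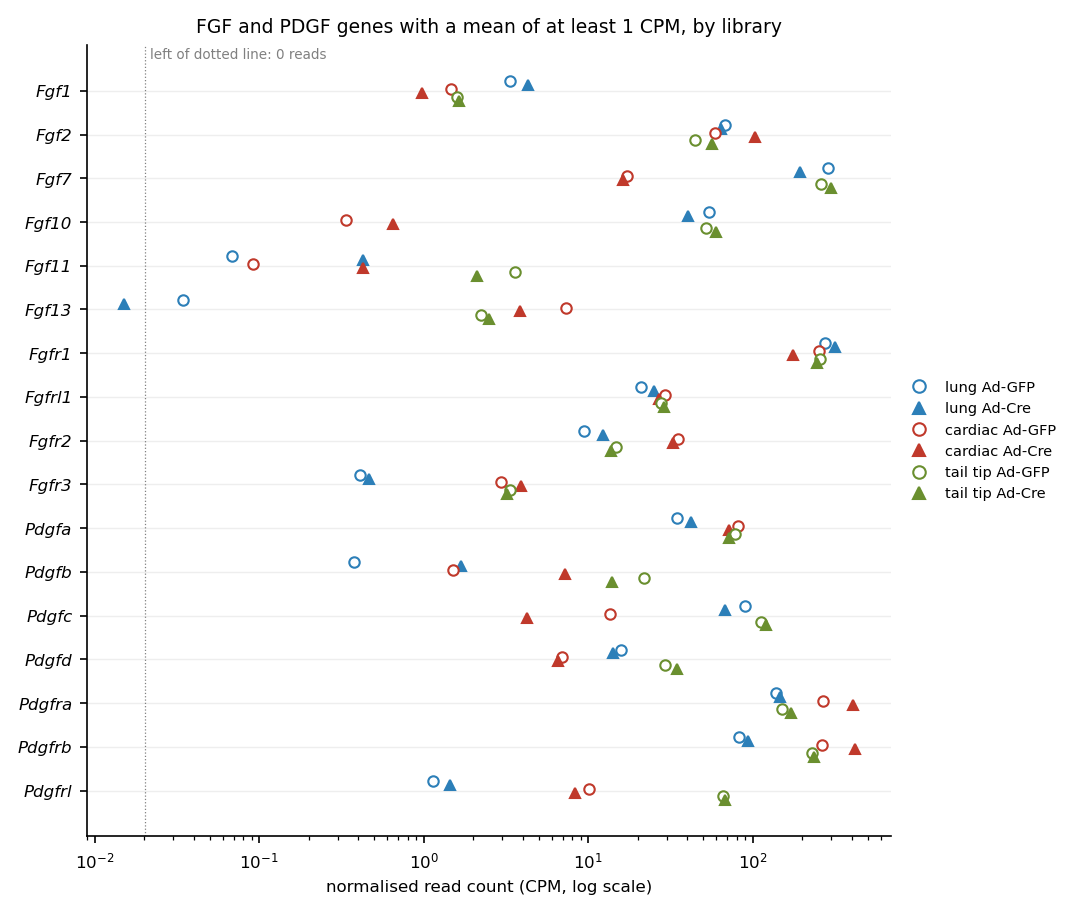
Level of the 17 members with a mean of at least 1 CPM in each of the 6 libraries, as TMM-scaled CPM on a log axis, ordered by role, with circles for Ad-GFP, triangles for Ad-Cre and points left of the dotted line at 0 reads. Fgf10, Fgf7 and Pdgfc are lowest in both cardiac libraries, and Pdgfrl rises from 1.13 and 1.44 CPM in lung to 65.9 and 68.0 CPM in tail tip.

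Members called the same way in both cardiac comparisons were 6. The ligands Fgf7, Fgf10, Pdgfc and Pdgfd were lower in cardiac, and the receptors Fgfr2 and Pdgfra higher. Both comparisons share the cardiac libraries, and the share of all tested genes called the same way in both was not computed. The 250 bases before the start of the 4 ligands are shown because these genes were low together in cardiac fibroblasts. The sequences are RefSeq's for build GRCm38.p6, all on the plus strand: Fgf7 chr2:126034408-126034657, Fgf10 chr13:118714449-118714698, Pdgfc chr3:81036166-81036415 and Pdgfd chr9:6168236-6168485. Capitals mark matches, on either strand, to a GATA factor motif (AGATAA, where T may stand first and G last), a TATA box (TATAAA), a GC box (GGGCGG), an AP-1 motif (TGACTCA) or an ETS motif (CCGGAAG). None of these motifs overlaps another in the 4 sequences.
Fgf7: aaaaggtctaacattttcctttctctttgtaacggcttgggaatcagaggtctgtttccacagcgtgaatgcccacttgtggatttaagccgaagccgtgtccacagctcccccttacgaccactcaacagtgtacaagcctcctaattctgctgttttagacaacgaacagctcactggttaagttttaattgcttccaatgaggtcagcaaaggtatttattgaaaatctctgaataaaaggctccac
Fgf10: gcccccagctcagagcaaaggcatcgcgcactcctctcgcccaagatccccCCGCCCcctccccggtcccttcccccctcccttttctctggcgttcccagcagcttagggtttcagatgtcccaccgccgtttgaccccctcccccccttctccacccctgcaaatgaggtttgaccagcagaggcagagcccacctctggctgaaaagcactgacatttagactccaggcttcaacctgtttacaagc
Pdgfc: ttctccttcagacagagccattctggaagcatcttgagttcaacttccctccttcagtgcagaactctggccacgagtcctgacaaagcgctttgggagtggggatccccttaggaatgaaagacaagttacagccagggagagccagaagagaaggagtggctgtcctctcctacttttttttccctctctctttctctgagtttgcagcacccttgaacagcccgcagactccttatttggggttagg
Pdgfd: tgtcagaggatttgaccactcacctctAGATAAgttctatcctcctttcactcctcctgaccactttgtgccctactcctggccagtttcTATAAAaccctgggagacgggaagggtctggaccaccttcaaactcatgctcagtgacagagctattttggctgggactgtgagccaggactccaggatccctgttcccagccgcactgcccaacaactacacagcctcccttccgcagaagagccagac

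Among these windows the GATA factor motif was found in Pdgfd alone, starting 223 bases before the start, and 26.5% of all 32851 RefSeq promoters of that length held it. The TATA box was found in Pdgfd, 160 bases before the start, and in 12.4% of all promoters. The GC box was found in Fgf10, 199 bases before the start on the opposite strand, and in 32.7% of all promoters. The AP-1 and ETS motifs had no match in the 4 windows, with matches in 4.46% and 6.91% of all promoters. G and C made up 43.6% of the bases for Fgf7, 61.2% for Fgf10, 50.8% for Pdgfc and 53.6% for Pdgfd, beside a median of 52.4% over all promoters. The windows shared no listed motif. The table held a promoter for 24 of the 34 members.

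Fgf7 (keratinocyte growth factor, ENSMUSG00000027208) and Fgf10 (ENSMUSG00000021732) are mesenchymal ligands for the epithelial splice form of Fgfr2. Fgf7 stood at 285 CPM in lung Ad-GFP, 194 in lung Ad-Cre, 17.2 in cardiac Ad-GFP, 16.2 in cardiac Ad-Cre, 258 in tail tip Ad-GFP and 299 CPM in tail tip Ad-Cre. Both cardiac libraries lay below all others, with no overlap. Fgf7 was 14.2-fold lower in cardiac than in lung (log2 change -3.83, SE 0.23, edgeR adjusted p = 4.36e-05) and 16.8-fold lower than in tail tip (log2 change -4.07, SE 0.23, edgeR adjusted p = 4.13e-05). Fgf10 stood at 54.2 and 40.3 CPM in the lung Ad-GFP and Ad-Cre libraries, 0.338 and 0.655 in the cardiac ones (11 and 20 reads) and 52.3 and 59.8 CPM in the tail tip ones. It was 95.1-fold lower in cardiac than in lung (log2 change -6.57, SE 0.34, edgeR adjusted p = 2.78e-05) and 113-fold lower than in tail tip (log2 change -6.82, SE 0.34, edgeR adjusted p = 2.92e-05). Lung and tail tip overlapped for both genes, with adjusted p of 0.354 for Fgf7 and 0.418 for Fgf10 by edgeR. Fgf10 overlaps an antisense gene, Gm16263, which itself had 0 reads in cardiac, 17 to 22 in lung and 61 to 72 in tail tip. The strand setting of the counting is unknown from the sources used here, so reads of overlapping genes on opposite strands cannot be told apart.

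The other members of the Fgf7 subfamily were hardly read. Fgf22, a ligand known from synapse formation, had 24 reads in the cardiac Ad-GFP library, 0 in cardiac Ad-Cre and 5 to 7 in the rest. It overlaps Rnf126 on the opposite strand, which had 1179 to 4072 reads. Fgf3 had 10 reads in the cardiac Ad-Cre library and 0 in the other 5.

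Fgf1 and Fgf2 are the acidic and basic FGFs, which lack a classical signal peptide and leave cells by another route. Fgf2 was read at 67.7 and 63.8 CPM in the lung Ad-GFP and Ad-Cre libraries, 59.1 and 103 in the cardiac ones and 44.5 and 56.7 CPM in the tail tip ones. Its origins overlapped between cardiac and lung, and no comparison passed (edgeR adjusted p = 0.0564 for cardiac against tail tip, 1.57-fold higher in cardiac). It overlaps Nudt6, the known FGF2 antisense gene, over 640 bases, but Nudt6 had only 8 to 42 reads. Fgf1 stood at 3.36 and 4.33 CPM in lung, 1.48 and 0.982 in cardiac and 1.60 and 1.63 CPM in tail tip (Ad-GFP, then Ad-Cre). It was 3.13-fold lower in cardiac than in lung (log2 change -1.65, SE 0.45, edgeR adjusted p = 0.0266), and without the lung Ad-GFP or the lung Ad-Cre library the adjusted p was 0.0613 or 0.226 (0.000178 to 0.226 over 12 alternatives).

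Of the Fgf4 subfamily, Fgf5, known as a brake on hair growth, was read in tail tip fibroblasts, with 41 and 61 reads there, 2 and 2 in lung and 0 and 1 in cardiac (Ad-GFP, then Ad-Cre). It was 20.1-fold lower in lung than in tail tip (log2 change -4.33, SE 0.91, edgeR adjusted p = 0.0062), with an adjusted p of 0.149 and 0.150 without the tail tip Ad-GFP or the tail tip Ad-Cre library (5.36e-09 to 0.150 over 13 alternatives). Against the single cardiac read the tail tip level was 99.1 times as high, with a 95% counting interval of 17.4 to 3954 (edgeR adjusted p = 0.00445, and 0.0779 without the tail tip Ad-Cre library, 1.83e-06 to 0.0779 over 12 alternatives). Fgf6, known from muscle, had at most 2 reads, and Fgf4, a growth factor of the early embryo, was unread in all 6 libraries.

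Of the Fgf9 subfamily, Fgf9 and Fgf16 had most of their reads in cardiac fibroblasts. Fgf9, which acts from mesothelium and epithelium on mesenchyme in the developing lung and heart, had 25 and 66 reads in the cardiac Ad-GFP and Ad-Cre libraries, 12 and 13 in the tail tip ones and 0 and 1 in the lung ones. Cardiac stood 79.0 times above lung, with a counting interval of 13.8 to 3156 (edgeR adjusted p = 0.00612), and tail tip 21.1 times above lung, with an interval of 3.46 to 867 (edgeR adjusted p = 0.0211). The second of these calls was lost without the lung Ad-GFP library (adjusted p = 0.0990) or the tail tip Ad-GFP library (0.125), the range over 13 alternatives being 0.000392 to 0.125. The 5 mesothelial markers were all read in both cardiac libraries. In lung 1 and 3 of them were read (153 and 193 CPM, nearly all from Msln), with Upk3b and Lrrn4 at 0, and in tail tip the sum was 0.315 and 0.423 CPM. Their part in the Fgf9 level was not tested. Fgf16, a heart-expressed ligand, had 4 and 16 reads in the cardiac libraries, 2 and 0 in lung and 0 in tail tip, and Fgf20 at most 1 read.

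The Fgf8 subfamily and the endocrine FGFs were near the limit of detection. Fgf18, a ligand of cartilage and bone, had 52 and 47 reads in tail tip, 9 and 11 in lung and 4 and 22 in cardiac (Ad-GFP, then Ad-Cre), and no comparison passed (edgeR adjusted p = 0.0642 for lung against tail tip, 4.36-fold higher in tail tip). Fgf17 ranged from 0 reads in cardiac Ad-Cre to 19 in cardiac Ad-GFP, and Fgf8, an organiser of the early embryo, was unread. Fgf15, the ileal hormone of bile acid feedback, had 29 reads in the cardiac Ad-Cre library, 2 in lung Ad-Cre and 0 elsewhere. Fgf21, a liver hormone of fasting, had at most 7 reads and Fgf23, the phosphate hormone of bone, at most 3.

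The intracellular FGFs, which bind voltage-gated sodium channels, were split between origins. Fgf13 had 240 and 118 reads (7.38 and 3.86 CPM) in the cardiac Ad-GFP and Ad-Cre libraries, 71 and 83 (2.23 and 2.51 CPM) in the tail tip ones and 1 and 0 in the lung ones. Cardiac stood 311 times above lung, with a counting interval of 55.5 to 12316 (edgeR adjusted p = 0.00042), and tail tip 130 times above lung, with an interval of 22.99 to 5168 (edgeR adjusted p = 0.000497). Fgf11 stood at 3.59 and 2.11 CPM in tail tip (114 and 70 reads), against 2 and 11 reads in lung and 3 and 13 in cardiac. It was 14.3-fold lower in lung (log2 change -3.84, SE 0.96, edgeR adjusted p = 0.013) and 13.5-fold lower in cardiac than in tail tip (log2 change -3.76, SE 0.94, edgeR adjusted p = 0.0207). Without the tail tip Ad-GFP library these adjusted p rose to 0.218 and 0.349, and without the lung Ad-GFP library the first was 0.0526 (up to 0.218 over 13 and 0.349 over 12 alternatives, from 4.75e-11 and 7.36e-09). Fgf14 had 29 and 14 reads in lung, 8 and 0 in cardiac and 7 and 8 in tail tip, with no call, and Fgf12 had at most 7 reads.

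Of the 5 FGF receptors, Fgfr1 and Fgfrl1 were called in no comparison of origins. Fgfr1, the main receptor of mesenchymal cells, stood at 275 and 317 CPM in lung, 252 and 177 in cardiac and 257 and 245 CPM in tail tip (Ad-GFP, then Ad-Cre), and none of its comparisons passed (largest change 1.40-fold, cardiac below lung, edgeR adjusted p = 0.0871). Fgfrl1, a receptor that lacks the kinase domain, ranged from 20.9 to 29.3 CPM and was not called either. Fgfr2 stood at 9.41 and 12.3 CPM in lung, 35.1 and 33.0 in cardiac and 14.7 and 13.7 CPM in tail tip. Both cardiac libraries lay above the other 4, and Fgfr2 was 3.15-fold higher in cardiac than in lung (log2 change 1.66, SE 0.21, edgeR adjusted p = 0.00103) and 2.39-fold higher than in tail tip (log2 change 1.26, SE 0.20, edgeR adjusted p = 0.0034). Counts per gene do not separate the epithelial and mesenchymal splice forms, which differ in the ligands they bind. In the annotation used, Fgfr2 overlaps Ctbp2 on the same strand over 314 bases, and Ctbp2 had 1784 to 3999 reads, highest in cardiac Ad-GFP.

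Fgfr3, known from growth plates, had 12 reads in each lung library, 96 and 120 in the cardiac and 106 and 107 in the tail tip libraries (0.412 and 0.468, 2.95 and 3.93, and 3.33 and 3.23 CPM). It was 7.72-fold higher in cardiac than in lung (log2 change 2.95, SE 0.45, edgeR adjusted p = 0.0026) and 7.44-fold higher in tail tip than in lung (edgeR adjusted p = 0.00163). Fgfr4, the receptor of liver for Fgf15, had 20 and 26 reads in cardiac, 7 and 3 in lung and 2 and 1 in tail tip. Cardiac stood 15.8 times above tail tip, with a counting interval of 5.07 to 79.3 (edgeR adjusted p = 0.0273), but the adjusted p was 0.0778, 0.0645, 0.272 and 0.367 without lung Ad-GFP, lung Ad-Cre, tail tip Ad-GFP or tail tip Ad-Cre (0.00129 to 0.367 over 12 alternatives).

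Among the PDGF ligands, Pdgfc (ENSMUSG00000028019) and Pdgfd (ENSMUSG00000032006), the chains secreted in latent form and freed by proteolysis of their CUB domain, were both lower in cardiac fibroblasts. Pdgfc stood at 90.0 and 67.7 CPM in lung, 13.6 and 4.26 in cardiac and 113 and 121 CPM in tail tip (Ad-GFP, then Ad-Cre), with both cardiac libraries below the rest. It was 9.45-fold lower in cardiac than in lung (log2 change -3.24, SE 0.39, edgeR adjusted p = 0.000948) and 14.5-fold lower than in tail tip (log2 change -3.86, SE 0.41, edgeR adjusted p = 0.000498). Without lung Ad-GFP or lung Ad-Cre the adjusted p was 0.182 or 0.186 against lung, and 0.0989 or 0.105 against tail tip (2.43e-72 to 0.186 and 4.76e-92 to 0.105 over 12 alternatives). Pdgfd stood at 15.8 and 14.2 CPM in lung, 6.89 and 6.52 in cardiac and 29.1 and 34.5 CPM in tail tip. The 3 origins did not overlap: it was 2.24-fold lower in cardiac than in lung (edgeR adjusted p = 0.00416), 4.74-fold lower in cardiac than in tail tip (edgeR adjusted p = 0.000255) and 2.12-fold lower in lung than in tail tip (edgeR adjusted p = 0.00311, and 0.0800 without tail tip Ad-Cre, 1.27e-10 to 0.0800 over 13 alternatives).

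Pdgfa, whose homodimer signals through PDGFRα, was instead low in lung, at 34.6 and 42.4 CPM, against 81.9 and 72.1 in cardiac and 77.6 and 71.8 CPM in tail tip. It was higher in cardiac than in lung (log2 change 1.00, SE 0.17, edgeR adjusted p = 0.00429) and 1.94-fold higher in tail tip than in lung (edgeR adjusted p = 0.00317). It overlaps the antisense gene 6330403L08Rik over 813 bases, which had 99 to 117 reads in lung, 168 to 283 in cardiac and 366 to 388 in tail tip. Pdgfb (ENSMUSG00000000489), the chain that recruits pericytes, stood at 0.378 and 1.68 CPM in lung (11 and 43 reads), 1.51 and 7.24 in cardiac (49 and 221 reads) and 21.9 and 13.9 CPM in tail tip (697 and 461 reads). It was 22.8-fold lower in lung than in tail tip (log2 change -4.51, SE 0.77, edgeR adjusted p = 0.00247) and 5.58-fold lower in cardiac than in tail tip (log2 change -2.48, SE 0.70, edgeR adjusted p = 0.0319), while lung and cardiac overlapped. The lung call was lost without lung Ad-GFP (adjusted p = 0.296), lung Ad-Cre (0.212) or both cardiac libraries (0.0812), of 5.14e-53 to 0.296 over 13 alternatives. The cardiac call was lost without lung Ad-GFP (0.338), lung Ad-Cre (0.332) or tail tip Ad-GFP (0.302) and with no virus term (0.0743), of 2.06e-24 to 0.338 over 12. Macrophages are a known source of Pdgfb, and all 8 macrophage markers were read in the tail tip libraries. Their sum was 1289 and 1064 CPM there, 217 and 136 in cardiac and 18.0 and 14.5 CPM in lung (Ad-GFP, then Ad-Cre). The sum was lower with Ad-Cre in all 3 origins, but in lung most of it was Cd14 (12.0 and 8.15 CPM). There Cd68 was also lower with Ad-Cre (2.03 and 1.40 CPM), while Csf1r (3.60 and 4.56 CPM) and Ptprc (0.206 and 0.351 CPM) were higher. The part of these cells in the Pdgfb level was not tested.

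The 3 PDGF receptors were all called higher in cardiac than in lung. Pdgfra stood at 138 and 146 CPM in lung, 268 and 408 in cardiac and 149.8 and 171 CPM in tail tip (Ad-GFP, then Ad-Cre). It was 2.34-fold higher in cardiac than in lung (log2 change 1.23, SE 0.17, edgeR adjusted p = 0.00184) and 2.08-fold higher than in tail tip (log2 change 1.05, SE 0.17, edgeR adjusted p = 0.00376). Pdgfrb stood at 82.2 and 93.6 CPM in lung, 263 and 416 in cardiac and 228 and 236 CPM in tail tip. Lung lay below both other origins: Pdgfrb was 3.80-fold higher in cardiac (log2 change 1.93, SE 0.19, edgeR adjusted p = 0.00036) and 2.65-fold higher in tail tip (edgeR adjusted p = 0.000713), and cardiac and tail tip did not differ by the test (1.43-fold, edgeR adjusted p = 0.0646). The smooth muscle and pericyte markers, whose cells carry Pdgfrb, summed to 764 and 758 CPM in lung, 3208 and 2531 in cardiac and 1277 and 1323 CPM in tail tip, with 6 to 8 of the 8 read in a library. Most of each sum was Acta2 (632 and 612, 2797 and 2118, and 1082 and 1120 CPM). Between origins Cnn1 and Rgs5 went the other way, with Cnn1 at 93.0 and 106 CPM in lung against 63.8 and 39.7 in cardiac, Rgs5 at 10.9 and 5.77 against 0 and 0.884 CPM, and Kcnj8 had 0 to 10 reads throughout. Between the cardiac libraries the sum was lower with Ad-Cre while Pdgfrb was higher. The part of these cells was not tested.

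Pdgfrl, which resembles the ligand-binding part of the PDGF receptors without a kinase, separated all 3 origins. It stood at 1.13 and 1.44 CPM in lung, 10.1 and 8.32 in cardiac and 65.9 and 68.0 CPM in tail tip. It was 7.14-fold higher in cardiac than in lung (log2 change 2.84, SE 0.23, edgeR adjusted p = 0.000162), 7.29-fold higher in tail tip than in cardiac (edgeR adjusted p = 8.85e-05) and 52.0-fold higher in tail tip than in lung (log2 change of lung against tail tip -5.70, SE 0.24, edgeR adjusted p = 6.71e-06).

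**Figure D2:**
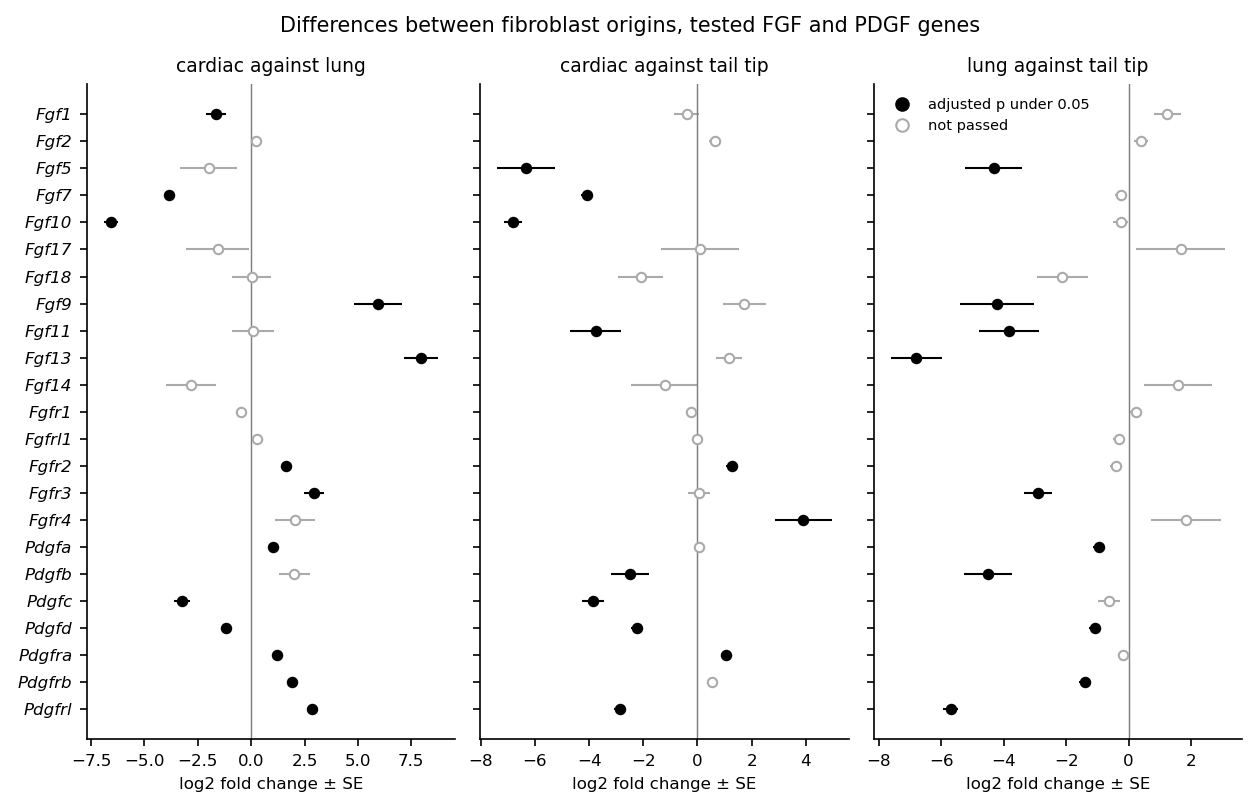
Log2 fold change and SE of the 23 tested members in the 3 comparisons of origins, from the edgeR model, with filled points for an adjusted p under 0.05. Fgf10 lies at -6.57 and -6.82 in the cardiac comparisons, and every called member of the lung comparison with tail tip lies below 0.

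Levels of different genes were compared only as CPM per kilobase of merged exons, and the orders and ratios below depend on that length. By the longest transcript, the mean over the 6 libraries was 31.2 instead of 21.3 CPM per kb for Pdgfra. It was 50.4 instead of 25.7 for Fgfr1 and 40.6 instead of 40.1 for Pdgfrb. By that length Fgfr1 ranked above Pdgfrb, and Pdgfra stood higher against Pdgfrb than given below. Fgf7 ranked 1 by either length. In lung the order was led by Fgf7 (mean of the 2 libraries 73.7 CPM per kb), followed by Fgfr1 (30.0), and Pdgfrb, Pdgfc, Pdgfra, Pdgfa and Fgf10 lay between 16.1 and 10.3 CPM per kb. In cardiac fibroblasts receptors led, with Pdgfrb at 62.0 and Pdgfra at 33.7, and Fgf7 stood at 5.14 CPM per kb. In tail tip Fgf7 led again at 85.9, followed by Pdgfrb at 42.4 and by Fgfr1, Pdgfa, Pdgfc and Pdgfrl between 25.4 and 21.4 CPM per kb. Neighbours in these orders often overlapped between libraries: in lung, Pdgfc spanned 13.3 to 17.7 and Pdgfrb 15.0 to 17.1 CPM per kb, and in tail tip Fgfr1, Pdgfa and Pdgfc spanned 22.2 to 26.1 CPM per kb. Pdgfra reached 0.916 and 0.851 of Pdgfrb per kilobase in lung, 0.557 and 0.536 in cardiac and 0.360 and 0.396 in tail tip libraries. Fgfr1 stood 27.0 to 30.6 times above Fgfr2 per kilobase in lung, 18.3 to 18.6 times in tail tip and 5.60 to 7.51 times in cardiac. Summed over the 22 FGF ligands, cardiac libraries held 17.5 and 23.5 CPM per kb, below lung at 111 and 80.0 and tail tip at 102 and 117 CPM per kb. Summed over the 3 PDGF receptors, lung was lowest with 29.1 and 32.1 CPM per kb, while cardiac at 78.0 and 119 and tail tip at 77.6 and 82.0 CPM per kb overlapped.

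Ad-Cre was set against Ad-GFP to ask what changed in common over the 3 origins. No member was called by edgeR, and none had an unadjusted p under 0.05, beside 367 of all 18143 genes, of which 0 (0%) passed adjustment. DESeq2 called 3 genes and limma-voom 0, with 0 members among them. Pdgfb was 2.07-fold higher with Ad-Cre (log2 change 1.05, SE 0.60) and Pdgfc 1.52-fold lower (log2 change -0.60, SE 0.30) in that model, with adjusted p over 0.99 for both by edgeR. Without the tail tip Ad-GFP or the tail tip Ad-Cre library both were called, Pdgfb at log2 changes of 2.20 and 2.21 and Pdgfc at -1.01 in both. In these fits the tail tip library that is left has no partner. Both fits thus take the virus change from the same lung and cardiac libraries and are not separate results. They leave out the pair where the ratio of Ad-Cre to Ad-GFP went the other way (0.635 for Pdgfb and 1.07 for Pdgfc). Under the other 10 alternatives neither was called, with a lowest adjusted p of 0.0600 for Pdgfb and 0.0530 for Pdgfc, and limma-voom put Pdgfb at a log2 change of -0.43.

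Within an origin there is 1 library per virus and no replicate check, so the ratios of Ad-Cre to Ad-GFP compare those libraries, with 95% intervals that cover counting error only. At a change of at least 2-fold (prior count 2), 2 of 23 members passed in lung, both higher, beside 7.69% of all genes (4.87% higher and 2.82% lower). In cardiac 7 passed, 4 higher and 3 lower, beside 20.3% (11.3% higher and 9.07% lower). In tail tip 1 passed, as lower, beside 3.10% (1.53% higher and 1.58% lower). Pdgfb was higher with Ad-Cre in lung (ratio 4.44, interval 2.25 to 9.55) and cardiac (4.80, 3.51 to 6.69) and lower in tail tip (0.635, 0.563 to 0.716). Fgf11 had the same signs, on few reads outside tail tip: 6.25 (1.36 to 58.0) in lung, 4.62 (1.27 to 25.3) in cardiac and 0.590 (0.431 to 0.801) in tail tip. Pdgfc was lower with Ad-Cre in lung (0.753, 0.708 to 0.800) and in cardiac (0.312, 0.254 to 0.380), and 1.07 (1.02 to 1.12) in tail tip. Fgf7 went from 285 to 194 CPM in lung (ratio 0.679, interval 0.655 to 0.703) and Fgf10 from 54.2 to 40.3 CPM (0.743, 0.687 to 0.805).

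In the cardiac pair the growth factor receptors and ligands moved in both directions. Pdgfra (ratio 1.52, interval 1.48 to 1.56), Pdgfrb (1.58, 1.54 to 1.63) and Fgf2 (1.74, 1.64 to 1.84) were higher in the Ad-Cre library, and Fgfr1 (0.702, 0.678 to 0.727) and Fgf13 (0.524, 0.416 to 0.655) lower. Fgf9 (2.81, 1.75 to 4.65) and Fgf18 (5.86, 1.99 to 23.4) also stood higher there. Some ligands had 0 reads on a side, so only the lower limit of the fold change in their counting interval is given. That limit covers counting error only and is not a least change between cultures. For genes higher in cardiac Ad-Cre it was 7.85-fold for Fgf15, 2.39-fold for Fgf3 and 1.54-fold for Fgf12. For genes lower there it was 5.65-fold for Fgf22, 4.38-fold for Fgf17 and 1.60-fold for Fgf14. Fgf15, Fgf3, Fgf12 and Fgf22 did not pass the filter on low counts. Over all tested genes the log2 ratio had an SD of 1.01 in this pair, against 0.535 in lung and 0.392 in tail tip. For Fgf5, Fgf6, Fgf20 and Fgf21 the interval of the cardiac pair included no change. This is the pair in which the epithelial and mesothelial marker sums differed, and their part in these ratios was not tested. In tail tip the member past 2-fold was Fgf17, with 13 and 2 reads (ratio 0.148, interval 0.0162 to 0.653).

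**Figure D3:**
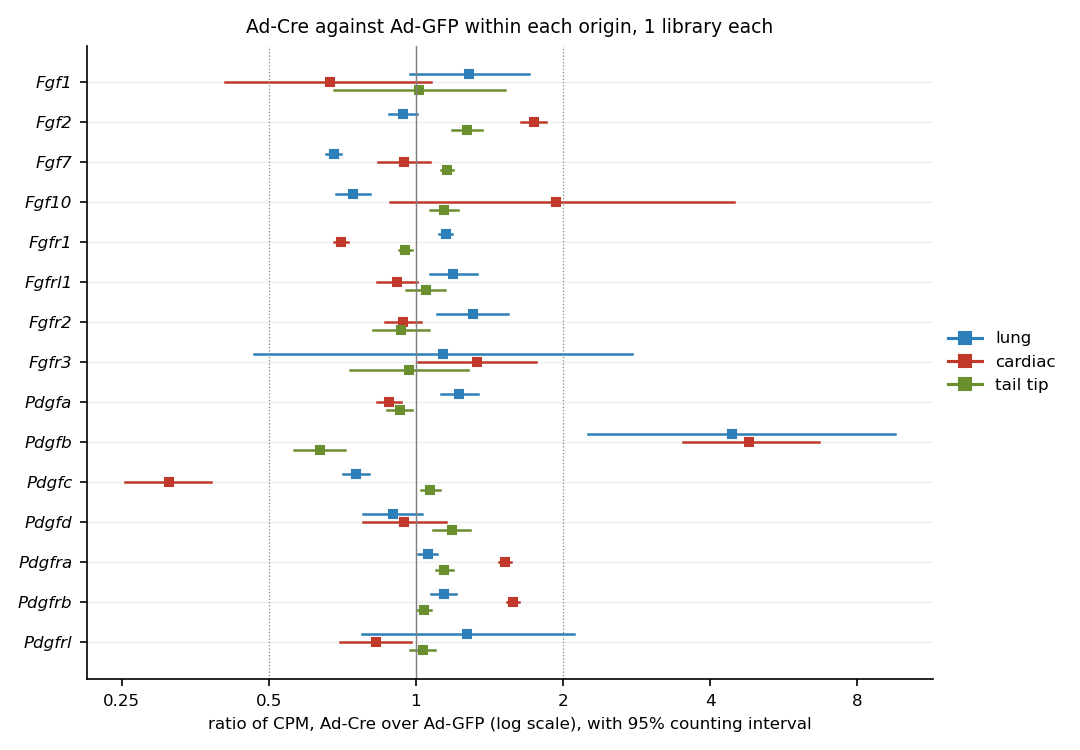
Ratio of Ad-Cre to Ad-GFP within each origin for 15 members, on a log axis, with 95% counting intervals as bars and 1 point per origin. Pdgfb lies at 4.44 and 4.80 in lung and cardiac and at 0.635 in tail tip, and Pdgfc lies lowest in cardiac at 0.312.

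Genes that surround the ligands and receptors were counted in 5 lists, and 0 genes of any list were called for Ad-Cre against Ad-GFP. Over all tested genes 38.4% were called for cardiac against lung, 33.5% for cardiac against tail tip and 50.6% for lung against tail tip, with median log2 changes of -0.01, -0.06 and -0.06. Heparan sulfate proteoglycans and their enzymes, which hold FGFs at the cell surface, had 20 of 21 members tested. Of these, 9 were higher and 2 lower in cardiac than in lung (median log2 change 0.43, beside -0.01 over all genes and 20.8% of them higher and 17.6% lower), 3 higher and 4 lower in cardiac than in tail tip (-0.20, beside -0.06, with a called share near that of all genes), and 4 higher and 12 lower in lung than in tail tip (-0.86, beside -0.06 and 22.3% of all genes higher and 28.2% lower). The extracellular sulfatases that trim heparan sulfate were lowest in lung: Sulf2 had 9 and 25 reads there, against 113 and 166 CPM in cardiac and 176 and 179 CPM in tail tip. Sulf1 stood at 22.7 and 22.5 CPM in lung, 332 and 330 in cardiac and 126 and 139 CPM in tail tip. Of the glypicans, Gpc3 was 44.1-fold higher in cardiac than in lung (log2 change 5.46, SE 0.49, edgeR adjusted p = 0.000251), and Gpc1 was 10.0-fold lower in cardiac than in tail tip (log2 change -3.33, SE 0.18, edgeR adjusted p = 3.59e-05).

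FGF coreceptors and binding proteins had 8 of 10 members tested, of which 2 were higher and 2 lower in cardiac than in lung, 2 higher and 3 lower in cardiac than in tail tip, and 1 higher and 3 lower in lung than in tail tip (median log2 changes -0.27, 0.12 and -0.36, beside -0.01, -0.06 and -0.06 over all genes). With 38.4%, 33.5% and 50.6% of all genes called, the share for lung against tail tip was at the background. These counts and medians include Fibcd1, which is not known as an FGF coreceptor or binding protein. Fibcd1 was 1 of the 2 higher in cardiac than in lung (log2 change 5.50). It was also 1 of the 3 lower in lung than in tail tip (log2 change -3.72). Flrt1, a membrane protein that binds FGF receptors, was read almost only in tail tip, at 21.7 and 24.1 CPM, against 2 to 6 reads in each of the other 4 libraries. Cdh2, N-cadherin, which binds Fgfr1, stood at 436 and 441 CPM in lung, 788 and 339 in cardiac and 96.7 and 89.6 CPM in tail tip. All 9 PDGF activating proteases and coreceptors were tested, with 4 higher and 3 lower in cardiac than in lung, 1 higher and 3 lower in cardiac than in tail tip, and 1 higher and 5 lower in lung than in tail tip (median log2 changes 0.13, -0.29 and -1.18, beside -0.01, -0.06 and -0.06 over all genes, of which 38.4%, 33.5% and 50.6% were called). This list includes Sparc, a matrix-associated protein that is neither a protease nor a coreceptor. Sparc was 1 of the 4 higher in cardiac than in lung (log2 change 1.87) and 1 of the 5 lower in lung than in tail tip (log2 change -1.99). Plat, tissue plasminogen activator, which frees PDGF-CC from its latent form, stood at 22.7 and 21.6 CPM in lung, 64.6 and 35.5 in cardiac and 239 and 217 CPM in tail tip. St14, an epithelial protease that also cleaves PDGF-CC, had 2 and 3 reads in lung, 45 and 50 in tail tip, and 41 and 279 in cardiac, where the epithelial marker sum stood at 14.4 and 144 CPM in the same libraries. Cspg4, the pericyte proteoglycan NG2, stood at 10.6 and 12.6 CPM in lung, 189 and 166 in cardiac and 111 and 112 CPM in tail tip.

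Adaptors that relay the receptors' signal (Frs2, Grb2, Gab1, Sos1 and others) were called in both directions, 6 higher and 6 lower of 16 in cardiac against lung, 3 and 2 against tail tip, and 3 and 5 in lung against tail tip (median log2 changes 0.25, 0.33 and -0.02, beside -0.01, -0.06 and -0.06 over all genes). Beside 38.4%, 33.5% and 50.6% of all genes called, both comparisons with tail tip were near the background. Feedback inhibitors and targets of ERK were called in 1 direction against tail tip. Of 16 tested, 8 were higher and 0 lower in cardiac than in tail tip, beside 15.5% of all genes higher and 18.0% lower (median log2 change 0.71, beside -0.06). In lung against tail tip 11 were higher and 0 lower, beside 22.3% and 28.2% (median 1.31, beside -0.06). In cardiac against lung 2 were higher and 7 lower, beside 20.8% and 17.6% (median -0.50, beside -0.01). Dusp5, a nuclear ERK phosphatase, stood at 173 and 237 CPM in lung, 141 and 87.2 in cardiac and 12.2 and 12.4 CPM in tail tip. Dusp4, another nuclear MAP kinase phosphatase, stood at 92.3 and 99.0 CPM in lung, 347 and 326 in cardiac and 29.4 and 21.9 CPM in tail tip. Spry4, an inhibitor of receptor signalling upstream of ERK, stood at 47.0 and 54.3 CPM in lung, 43.8 and 77.7 in cardiac and 9.94 and 12.7 CPM in tail tip. Etv4, an ETS transcription factor induced by FGF signalling, stood at 82.0 and 98.8 CPM in lung, 50.4 and 60.5 in cardiac and 14.3 and 15.5 CPM in tail tip. Each of these 4 genes lay below both other origins in both tail tip libraries. They were named for the largest absolute changes of the list in lung against tail tip, so their low level there follows from the choice. Not all of the list went this way: Etv5 stood at 37.1 and 34.6 CPM in lung, 46.1 and 39.0 in cardiac and 41.4 and 44.8 CPM in tail tip. Spry1, with the largest change in cardiac against lung, stood at 1.68 and 1.91, 19.9 and 12.0, and 1.60 and 1.15 CPM in the same order.

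**Figure D4:**
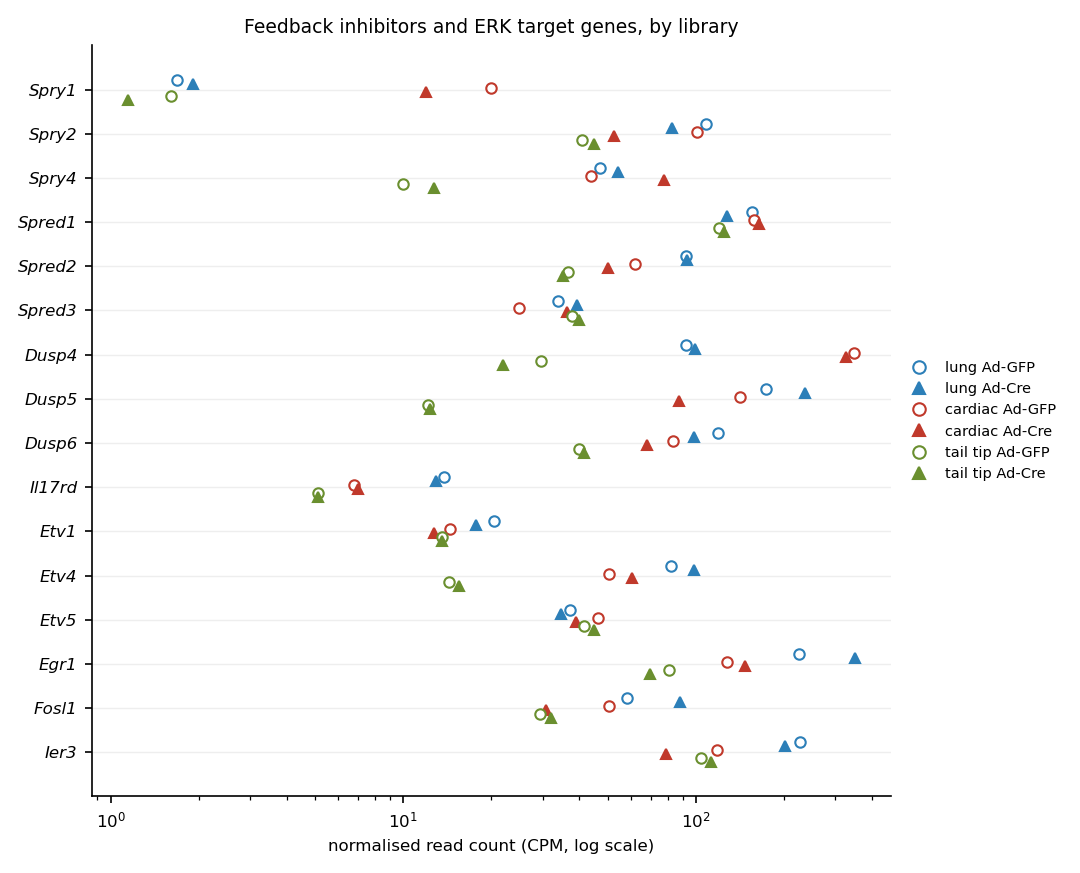
Level of the feedback inhibitors and ERK targets in each of the 6 libraries, as TMM-scaled CPM on a log axis, with each point standing for 1 library. Dusp5 falls from 173 and 237 CPM in lung to 12.2 and 12.4 CPM in tail tip.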

How the data were processed

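RNA of 6 libraries was deposited as whole-number read counts per Ensembl gene, with no normalisation; the deposited counts are the authors' own. The submitters' processing notes name STAR 2.0.7 and mm39; for the counting tool, annotation and strand setting: not given in the sources used here. Columns were matched to libraries by the column names in the labels, which ascribe them to a matrix with another title, and 0 columns belonged to no sample. Symbols and exon lengths came from GENCODE's GRCm38 annotation (51884 identifiers matched, 5296 did not) and promoters from RefSeq.

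Genes were tested in R 4.3.3 with edgeR 4.0.16: filterByExpr by origin (minimum count 10), TMM factors (0.964 to 1.03), a model of origin and virus with 2 residual degrees of freedom, common dispersion 0.0455, two-sided tests, threshold 0.05. Alternatives were DESeq2 1.42.0, limma-voom (limma 3.58.1), other scalings, no filter, no virus term and left-out libraries. Ratios within an origin have exact conditional binomial 95% intervals, and log2 ratios a prior count of 2.

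Members and lists were chosen with earlier results of these data known. Every member was accounted for by its reads (10 reads in a library to be named with values), and up to 4 genes of each list were named, by absolute fold change at a mean of at least 1 CPM.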

Additional observations from a re-analysis of the deposited data

Results flagged for a closer look

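In 7 members the ratio of Ad-Cre to Ad-GFP went opposite ways in different origins, each with at least 1 ratio above and 1 below 1 whose counting interval did not reach 1. The share of all tested genes that meet this rule was not computed, so the count of 7 is only a description. Counting intervals are narrow for genes with many reads. With 1 library per group the difference between origins was not tested. Pdgfb stood at 4.44 for lung, 4.80 for cardiac and 0.635 for tail tip, and Fgf11 at 6.25, 4.62 and 0.590. Pdgfc stood at 0.753, 0.312 and 1.07 in the same order. Fgf7 stood at 0.679, 0.945 and 1.16, and Fgf10 at 0.743, 1.94 and 1.14. Fgfr1 stood at 1.15, 0.702 and 0.951, and Pdgfa at 1.23, 0.881 and 0.926.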

How the results depend on the processing

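Of the 34 origin calls on members, 22 were kept under every alternative run, 12 were lost at least once and 0 reversed. Apart from 2 calls on Pdgfb, all losses came from leaving out a single library. Leaving out each library in turn gave 11 to 21 members for cardiac against lung, 8 to 18 for cardiac against tail tip, 7 to 16 for lung against tail tip and 0 to 2 for Ad-Cre against Ad-GFP. The counts of 21 and 18 came without cardiac Ad-GFP, and 16 without either cardiac library. Over all genes, these fits called 5038 to 10065 (6967 with all libraries), 3110 to 9208 (6077), 5995 to 12560 (9175) and 11 to 109 (0). In such fits the lone library of an origin is assumed to vary like the others. Within origins, the count past 2-fold in lung was 4 with a prior count of 0.5. When 50 reads were asked of either library it was 0 for lung, 3 for cardiac and 0 for tail tip. The shares of all genes under these settings are not given here, so these counts are only descriptions. Without a filter on low counts, Ad-Cre against Ad-GFP gave 141 called genes against 0, with 0 members among them. Of the 34 members, 11 did not pass the filter on low counts and were not tested.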

Other observations

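Fgf3, Fgf4 and Fgf15 lie next to each other on chromosome 7 in the RefSeq gene order, between Ano1 and LTO1. In the cardiac Ad-Cre library Fgf3 had 10 reads, Fgf4 0 and Fgf15 29, while in cardiac Ad-GFP all had 0. Ano1, a chloride channel gene, had 447 reads in cardiac Ad-GFP and 1469 in cardiac Ad-Cre, against 2 to 38 in the other 4 libraries. Fadd, the adaptor of death receptors on the far side of Ano1, had 445 and 351 reads in the cardiac libraries. These genes were looked at after their values were seen, and with 1 library per group the differences have no replicate check.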
